A study of Mus musculus with 38 samples.

Results

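The VEGF and angiopoietin system was examined through 10 genes: the ligands Vegfa, Vegfb and Pgf, their receptors Flt1, Kdr and Nrp1, the angiopoietins Angpt1 and Angpt2, and the receptors Tek and Tie1. They were chosen by name as members of this system, and all 10 were found among the 35682 genes of the deposited table of estimated counts per gene. RNA was sequenced from cardiomyocytes, endothelial cells (ECs) and fibroblasts of C57BL/6 mouse hearts in 38 libraries, each made from 2 pooled hearts of male mice that were 8 to 12 weeks old. Sham mice had vehicle (5% DMSO in saline) by mouth for 6 weeks and an open-chest operation without ischemia. Control-AMI mice had the same vehicle for 6 weeks, then 30 min of ischemia by ligation of the left anterior descending coronary artery and 2 h of reperfusion. EMPA–Pre-AMI mice had empagliflozin (EMPA, an inhibitor of the sodium-glucose carrier SGLT2) at 10 mg/kg/d for 6 weeks before the same ischemia and reperfusion. No group had EMPA without ischemia, and Sham and Control-AMI differ by coronary ligation, ischemia and reperfusion together. In the order Sham, Control-AMI, EMPA–Pre-AMI, the libraries numbered 4, 5 and 4 for cardiomyocytes, 4, 4 and 5 for ECs, and 4 in every fibroblast group. Cardiomyocytes were pelleted from the digested ischemic part of the heart without sorting, ECs were sorted as CD45-, CD31+ cells, and fibroblasts as CD45-, CD31-, CD90+ cells. The sorted cells came from the supernatant of the digests that gave the cardiomyocyte pellets. The paper gives fewer mice for this series than separate hearts for every library would need, so libraries of different populations shared hearts. Which libraries shared hearts is not given in the sources used here, and tests between populations below treat all libraries as independent.

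VEGF-A is the main growth and survival signal for vascular endothelium. It binds the receptor tyrosine kinases VEGFR-2 (Kdr), which carries most of the signal, and VEGFR-1 (Flt1), which binds it tightly, signals weakly and is also made as a soluble decoy, while neuropilin-1 (Nrp1) is a coreceptor that enhances Kdr signaling. VEGF-B and placental growth factor (Pgf) bind Flt1 and Nrp1 but not Kdr. Angiopoietin-1 (Angpt1), made by perivascular and muscle cells, activates the endothelial receptor Tie2 (Tek) and keeps vessels tight, angiopoietin-2 (Angpt2), stored in ECs, can oppose it, and Tie1 is a partner receptor that binds neither directly. In the heart, cardiomyocytes are a known source of VEGF-A and VEGF-B for the capillaries around them.

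Positions are on GRCm39. Vegfa lies on chromosome 17 from 46327919 to 46343309, Vegfb on chromosome 19 from 6958447 to 6965127, and Flt1 on chromosome 5 from 147498414 to 147662826. Nrp1 lies on chromosome 8 from 129085085 to 129231082, and Tek and Tie1 on chromosome 4 from 94627291 to 94763224 and from 118328385 to 118347261. Angpt1 lies on chromosome 15 from 42288058 to 42540417 and Angpt2 on chromosome 8 from 18739202 to 18791603. Kdr (ENSMUSG00000062960) lies on chromosome 5 from 76093487 to 76139884 and Pgf (ENSMUSG00000004791) on chromosome 12 from 85213409 to 85224564, both on the minus strand. These were the genes with the largest changes past the test in ECs after AMI, Kdr lower and Pgf higher, so the 250 bases before the start of their Ensembl canonical transcripts are shown, 5′ to 3′ on the strand of the gene. The Pgf window precedes the annotated gene. The Kdr window lies inside the annotated gene, which extends to 76139884. Capitals mark the hypoxia response core ACGTG, on either strand, in Pgf and the ETS factor core CCGGAA, on either strand, in Kdr.
Pgf (chr12:85224565-85224814, GRCm39, minus strand): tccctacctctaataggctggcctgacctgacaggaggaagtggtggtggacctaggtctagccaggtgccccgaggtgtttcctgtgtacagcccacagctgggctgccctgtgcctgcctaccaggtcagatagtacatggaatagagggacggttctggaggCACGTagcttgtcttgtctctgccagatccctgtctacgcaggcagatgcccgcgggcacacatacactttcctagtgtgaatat
Kdr (chr5:76139119-76139368, GRCm39, minus strand): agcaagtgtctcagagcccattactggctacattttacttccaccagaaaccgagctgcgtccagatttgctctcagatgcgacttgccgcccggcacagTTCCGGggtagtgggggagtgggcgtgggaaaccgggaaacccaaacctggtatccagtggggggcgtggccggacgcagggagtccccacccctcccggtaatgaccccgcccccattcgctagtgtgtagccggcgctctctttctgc
Among the same windows of 21770 protein-coding genes, 17% held ACGTG and 12.4% held CCGGAA on at least 1 strand. Of the 10 genes, 4 held ACGTG (Vegfb, Pgf, Nrp1 and Tie1) and 1 held CCGGAA (Kdr). Another 4 motifs were searched on both strands. The GC box GGGCGG was in 6 of the 10 windows against 36.3% of all windows, the metal response core TGCNCNC in 4 against 44.1%, the GATA site AGATAA in 1 against 9.6%, and the AP-1 site TGANTCA in 0 against 6.17%. ACGTG overlaps itself on the opposite strand within CACGTG, and such a pair was counted as 1 window. A match is a description of the letters and not of binding.

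Library totals ranged from 2031716 to 4509284 counts for cardiomyocytes, from 1352514 to 2195308 for ECs and from 1946056 to 2821373 for fibroblasts. Genes encoded by mitochondrial DNA took 46.6% to 66% of the cardiomyocyte counts, against 4.52% to 14.6% of the EC and 3.47% to 12.5% of the fibroblast counts. The markers matched the labels, with 10 endothelial markers summing to 4203 to 7569 CPM (counts scaled to a common library size) in ECs, 10 fibroblast markers to 17880 to 27390 CPM in fibroblasts and 9 cardiomyocyte markers to 20600 to 42610 CPM in cardiomyocytes. Each population also held RNA of the others. Fibroblast markers summed to 666 to 1727 CPM in Sham ECs, 2343 to 8653 CPM in Control-AMI ECs and 599.9 to 1190 CPM in EMPA–Pre-AMI ECs, without overlap of Control-AMI with the other groups. Endothelial markers summed to 238 to 574 CPM in cardiomyocytes and to 85.7 to 642 CPM in fibroblasts. A sample number in the labels places the libraries in 4 runs of numbers, called sample-sheet lists here, and EC Control-AMI replicates 1 and 4, which held 8653 and 4821 CPM of fibroblast markers, are the only EC libraries on list 4. All values per library below are CPM with TMM factors computed within a population, so they compare libraries of 1 population for 1 gene, and values set side by side for different populations are a description beside the joint test. The reads come from the 3′ ends of transcripts, no length correction applies, and no level is compared between genes.

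Which population made each ligand was asked in the Sham libraries first. Vegfb RNA was highest in cardiomyocytes, with 175, 183, 182 and 150 CPM in Sham replicates 1 to 4. It was 10.6, 14.7, 16.6 and 21.5 CPM in Sham ECs and 30.03, 22.4, 24.3 and 15.7 CPM in Sham fibroblasts. No cardiomyocyte library came near those of the other populations, whose ranges overlapped. In one edgeR fit of all 38 libraries, Vegfb was 39.3-fold higher in cardiomyocytes than in ECs (log2 difference 5.30 ± 0.33 SE, adjusted p = 3.885e-17) and 25.02-fold higher than in fibroblasts (log2 difference 4.65 ± 0.31 SE, adjusted p = 4.906e-16). These folds depend on scaling, because TMM factors had a median of 0.438 in cardiomyocytes and lay above 1 in the sorted cells. With library totals alone the same folds were 11.01 and 7.36, past the test as well.

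Vegfa RNA was also highest in cardiomyocytes. Sham cardiomyocytes had 130.1, 117, 121 and 121 CPM, Sham ECs 58.99, 36.1, 33.6 and 37.5 CPM, and Sham fibroblasts 78.8, 61.1, 78.1 and 43.4 CPM. The difference was 10.7-fold against ECs (log2 3.41 ± 0.33 SE, adjusted p = 2.737e-11) and 6.29-fold against fibroblasts (log2 2.65 ± 0.31 SE, adjusted p = 5.149e-09), and 3.03-fold and 1.86-fold with library totals alone, both past the test. Fibroblasts and ECs were neighbours in the order for both genes, with log2 EC minus fibroblast of -0.76 (95% interval -1.40 to -0.13, adjusted p = 0.0515) for Vegfa and -0.65 (-1.28 to -0.02, adjusted p = 0.097) for Vegfb. Neither passed the test, although both passed when only the Sham libraries were fitted. In bulk RNA of a population, fewer cells of a type and less RNA per cell cannot be told apart, for these and all later values.

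Pgf RNA had another order. Sham fibroblasts had 191, 107, 159 and 100.4 CPM, Sham ECs 23.01, 20.4, 12.7 and 18.1 CPM, and Sham cardiomyocytes 10.4, 6.80, 9.23 and 14.0 CPM. Pgf was 8.08-fold higher in fibroblasts than in ECs (log2 EC minus fibroblast -3.01 ± 0.29 SE, adjusted p = 3.64e-11) and 4.10-fold higher than in cardiomyocytes (log2 cardiomyocyte minus fibroblast -2.04 ± 0.28 SE, adjusted p = 1.118e-07). Fibroblasts came first under every scaling tried. The order of cardiomyocytes and ECs is not settled by these data, since log2 cardiomyocyte minus EC was 0.98 (adjusted p = 0.00632) with TMM factors, -0.81 (adjusted p = 0.0306) with library totals and 0.26 (adjusted p = 0.478) with library totals and mitochondrial genes left out.

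The receptors Kdr and Flt1 were EC genes in these libraries. Kdr had 3757, 3568, 4506 and 4095 CPM in Sham ECs, against 186, 213, 147 and 187 CPM in Sham cardiomyocytes and 176, 115, 16.5 and 10.6 CPM in Sham fibroblasts. Flt1 had 1756, 2425, 2131 and 2135 CPM in Sham ECs, 109.8, 158, 82.1 and 105.5 CPM in Sham cardiomyocytes and 120.5, 42.7, 6.51 and 1.37 CPM in Sham fibroblasts. The Sham fibroblast libraries spanned more than the other populations did, as described below. ECs exceeded fibroblasts 46.6-fold for Kdr (log2 5.54 ± 0.81 SE, adjusted p = 1.397e-06) and 45.8-fold for Flt1 (log2 5.52 ± 0.86 SE, adjusted p = 4.391e-06). ECs exceeded cardiomyocytes 6.02-fold for Kdr (log2 cardiomyocyte minus EC -2.59 ± 0.70 SE, adjusted p = 0.00262) and 5.14-fold for Flt1 (-2.36 ± 0.74 SE, adjusted p = 0.00833). With library totals alone, the distances from cardiomyocytes grew to 21.4-fold and 18.4-fold. Membrane and soluble Flt1 transcripts are summed in these gene counts and could not be separated. Tie1 followed the same order, with 472, 404, 443 and 485 CPM in Sham ECs, 26.8, 33.01, 23.9 and 19.3 CPM in Sham cardiomyocytes and 22.2, 15.8, 1.74 and 0 CPM in Sham fibroblasts. A count of 0 allows up to 3 counts, or 1.06 to 1.54 CPM in the fibroblast libraries, for counting error only.

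Nrp1 and Tek were shared more widely. Nrp1 had 1035, 1103, 1257 and 1194 CPM in Sham ECs, 244, 243, 221 and 201 CPM in Sham fibroblasts and 82.5, 81.1, 63.95 and 81.1 CPM in Sham cardiomyocytes. Tek had 262, 317, 195 and 316 CPM in Sham ECs, 116, 88.9, 75.9 and 98.7 CPM in Sham fibroblasts and 21.1, 25.0, 17.1 and 16.8 CPM in Sham cardiomyocytes. ECs were highest for both, 4.70-fold above fibroblasts for Nrp1 (log2 2.23 ± 0.18 SE, adjusted p = 5.807e-13) and 2.67-fold for Tek (log2 1.42 ± 0.25 SE, adjusted p = 9.693e-06). Against ECs, cardiomyocytes were 4.12-fold lower for Nrp1, 3.76-fold lower for Tek and 4.84-fold lower for Tie1, all past the test. Between cardiomyocytes and fibroblasts, the TMM fit gave log2 differences of 0.19 for Nrp1 (95% interval -0.16 to 0.54) and -0.50 for Tek (-1.01 to 0.02), neither past the test. With library totals alone the same differences were -1.56 and -2.26, with fibroblasts higher and both past the test, so the place of cardiomyocytes rests on scaling.

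The angiopoietins lay on opposite sides. Angpt2 was an EC gene of low level, with 20.7, 23.3, 48.2 and 25.7 CPM in Sham ECs, and it never exceeded 14 counts in a fibroblast library or 13 in a cardiomyocyte library. Angpt1 had 83.7, 46.6, 44.2 and 37.9 CPM in Sham fibroblasts, 39.7, 36.4, 31.1 and 25.2 CPM in Sham cardiomyocytes and 7.08, 8.56, 0.487 and 3.47 CPM in Sham ECs. ECs were the lowest for Angpt1, 11.4-fold below fibroblasts (log2 -3.51 ± 0.47 SE, adjusted p = 8.626e-08) and 23.9-fold below cardiomyocytes (log2 cardiomyocyte minus EC 4.58 ± 0.47 SE, adjusted p = 2.209e-10), the latter 6.76-fold with library totals alone. They were the highest for Angpt2, 8.63-fold above fibroblasts (log2 3.11 ± 0.41 SE, adjusted p = 3.639e-08) and 4.37-fold above cardiomyocytes (log2 cardiomyocyte minus EC -2.13 ± 0.41 SE, adjusted p = 3.5e-05). The order of cardiomyocytes and fibroblasts for Angpt1 turned with scaling, from log2 1.06 with TMM factors (adjusted p = 0.0172) to -0.71 with library totals (adjusted p = 0.0756). In all, 8 of the 10 genes differed between Sham ECs and fibroblasts (37.7% of all 12085 genes tested did), 10 between cardiomyocytes and ECs (52.9% of all genes) and 7 between cardiomyocytes and fibroblasts (47.3%). Those shares of all genes are high, so the counts by themselves are not particular to these genes.

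**Figure D1:**
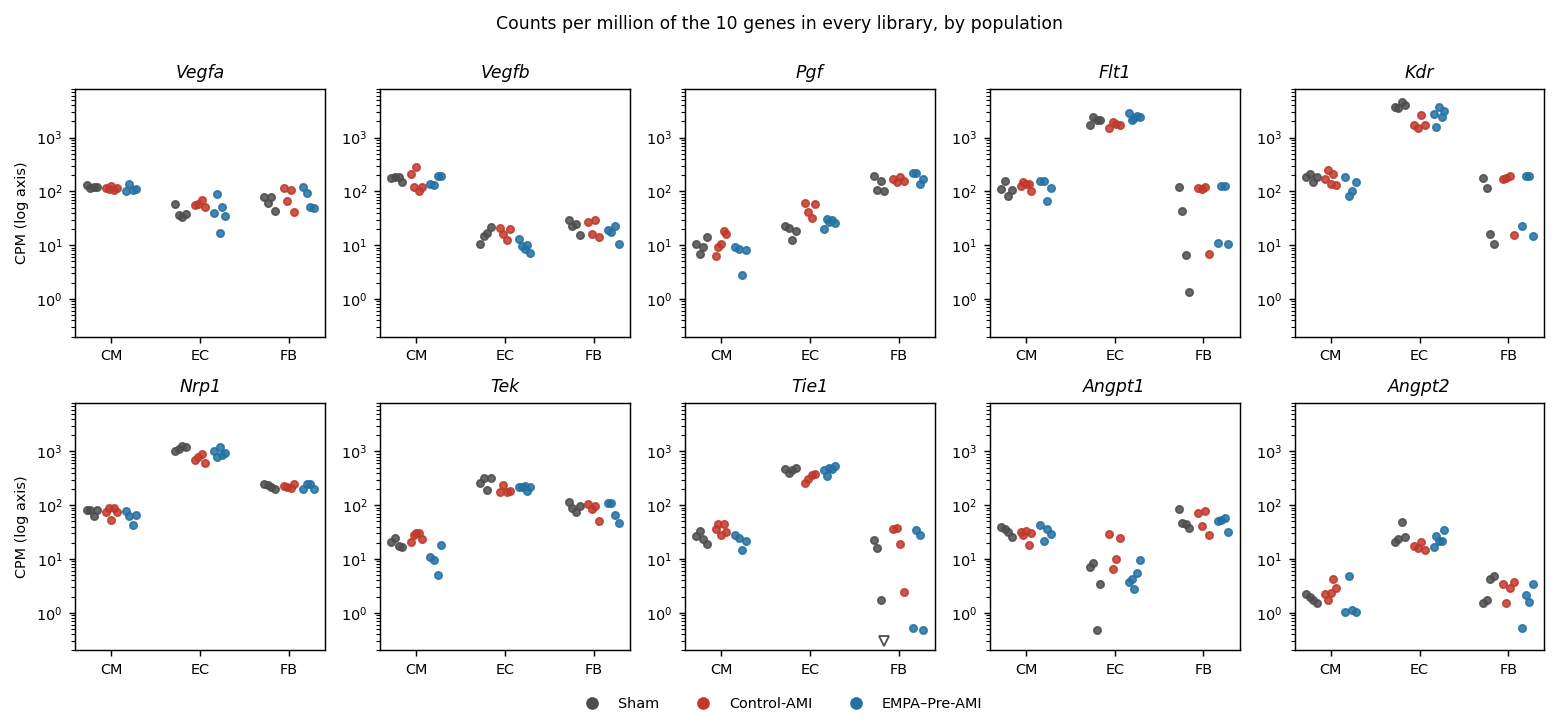
CPM on a log axis for the 10 genes in each of the 38 libraries, in cardiomyocytes (CM), ECs (EC) and fibroblasts (FB), scaled within each population. Each point is a library coloured by group, and the open triangle marks the Tie1 value of 0. Kdr, Flt1 and Tie1 are highest in every EC library and spread widely in fibroblasts, Vegfb is highest in every cardiomyocyte library, and Pgf in every fibroblast library.

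The spread of Kdr, Flt1 and Tie1 in fibroblasts followed the endothelial marker Cdh5 (VE-cadherin). In 5 fibroblast libraries Cdh5 was below 5 CPM, a limit set after seeing the data: replicates 3 and 4 of Sham, replicate 4 of Control-AMI, and replicates 1 and 4 of EMPA–Pre-AMI. In these, Cdh5 was 0 to 2.60 CPM, Kdr 10.6 to 22.8 CPM, Flt1 1.37 to 10.9 CPM and Tie1 0 to 2.47 CPM. In the other 7 libraries, with Cdh5 at 12.3 to 37.9 CPM, Kdr was 115 to 196 CPM, Flt1 42.7 to 127.5 CPM and Tie1 15.8 to 38.3 CPM, without overlap for any of these genes. Nrp1 overlapped, at 199 to 249 CPM in the 5 libraries (median 201.8 CPM) and 208 to 246 CPM in the 7 (median 242.8 CPM). In Sham and in EMPA–Pre-AMI both libraries with more Cdh5 had more Nrp1 than both with less, while Control-AMI replicate 4, with low Cdh5, had the most Nrp1 of all. Tek overlapped as well, at 47.7 to 107.9 CPM and 66.4 to 116 CPM. The split followed the sample-sheet lists: all 6 fibroblast libraries on list 4 were among the 7, and the 5 were on lists 1 and 3. Over all 12 fibroblast libraries, Kdr varied 18.5-fold and Flt1 93.3-fold between the lowest and the highest, while Nrp1 varied 1.25-fold and Tek 2.43-fold. Mural markers (genes of pericytes and smooth muscle) summed to 952 to 6334 CPM in fibroblasts, and their part in the Tek and Nrp1 RNA of these libraries was not tested.

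**Figure D2:**
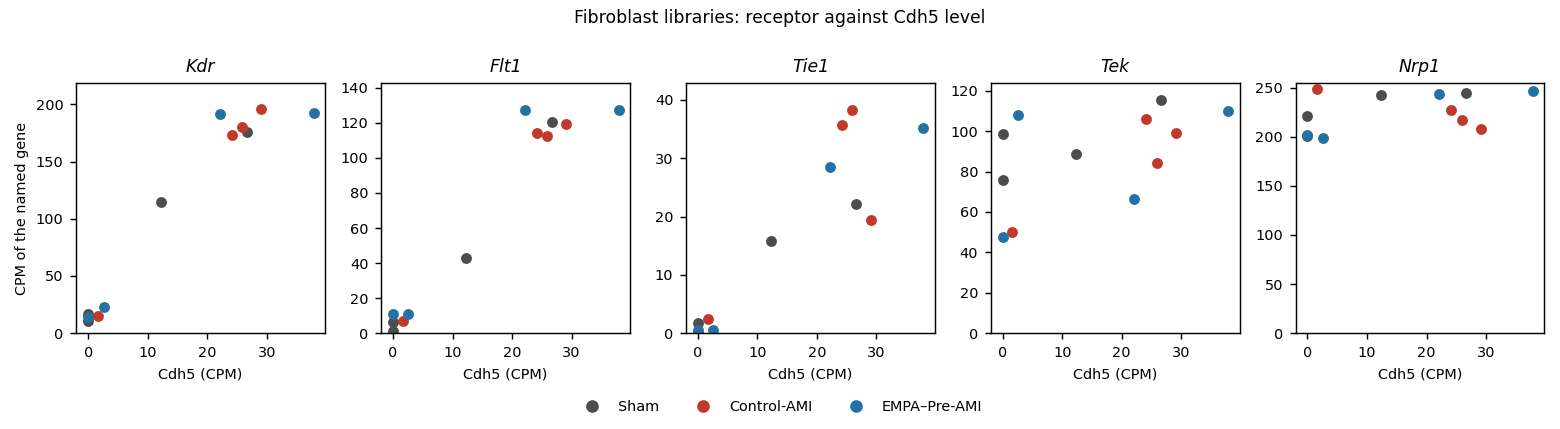
CPM of Kdr, Flt1, Tie1, Tek and Nrp1 against CPM of the endothelial marker Cdh5 in the 12 fibroblast libraries, on linear axes and coloured by group. The 5 libraries with Cdh5 of 0 to 2.60 CPM hold the lowest Kdr, Flt1 and Tie1, whereas Nrp1 stays between 199 and 249 CPM in all 12.

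In the unsorted cardiomyocyte libraries, the EC receptors stood in much the same proportion to other endothelial RNA as in ECs. Over the 13 cardiomyocyte libraries the CPM of Flt1 was 23.7% to 41.8% of the summed CPM of the 10 endothelial markers, against 23.2% to 39.5% over the 13 EC libraries. Nrp1 was 13.8% to 23.2% in cardiomyocytes and 12.3% to 20.1% in ECs. Tie1 was 5.51% to 10.3% and 4.74% to 8.12%, and Tek 2.14% to 7.90% and 2.67% to 4.88%. Kdr was 22.6% to 53.8% and 23.1% to 71.9%. The ranges overlapped for each of these receptors over all groups together. Within Control-AMI alone, Tek did not overlap, at 5.22% to 7.90% in cardiomyocytes and 3.38% to 4.26% in ECs. Within Sham it was 4.79% to 5.91% and 3.11% to 4.88%. These are ratios of CPM within a library, and whether the receptor RNA came from cardiomyocytes or from ECs in the pellet was not tested.

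The effect of AMI was asked next within each population. In ECs, 3 of the 10 genes changed between Sham and Control-AMI, Kdr and Nrp1 falling and Pgf rising, against 6.56% of the 10438 genes tested. The median log2 fold change was -0.36 over the 10 genes and -0.49 over the 5 receptors, against -0.02 over all genes tested. Kdr, the main signaling receptor, had 3757, 3568, 4506 and 4095 CPM in Sham and 1690, 1492, 2623 and 1723 CPM in Control-AMI. Every Control-AMI library was below every Sham library. The mean was 3982 ± 412 CPM (SD, n = 4) in Sham and 1882 ± 504 CPM (SD, n = 4) in Control-AMI, a 2.12-fold decrease (log2 fold change -1.08 ± 0.21 SE, 95% interval -1.53 to -0.63, adjusted p = 0.00413, edgeR). Nrp1, the coreceptor, had 1035, 1103, 1257 and 1194 CPM in Sham and 702.5, 792, 906 and 623 CPM in Control-AMI, again without overlap. Its decrease was 1.52-fold (log2 fold change -0.60 ± 0.16 SE, 95% interval -0.93 to -0.28, adjusted p = 0.0213, edgeR). Pgf had 23.01, 20.4, 12.7 and 18.1 CPM in Sham and 62.1, 41.4, 31.4 and 57.3 CPM in Control-AMI, without overlap. Its increase was 2.61-fold, from 18.5 ± 4.42 to 48.1 ± 14.2 CPM (SD, n = 4 each; log2 fold change 1.38 ± 0.25 SE, 95% interval 0.86 to 1.91, adjusted p = 0.00238, edgeR).

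The other receptors had lower fitted values in Control-AMI ECs without passing the test. Tie1 had 472, 404, 443 and 485 CPM in Sham and 262, 306, 359 and 378 CPM in Control-AMI, which did not overlap, with a log2 fold change of -0.47 ± 0.16 SE (adjusted p = 0.0744). Tek, the angiopoietin receptor, had 262, 317, 195 and 316 CPM in Sham and 179, 233.5, 174 and 187 CPM in Control-AMI, which overlapped, with a log2 fold change of -0.49 ± 0.16 SE (adjusted p = 0.0725). Flt1, the decoy receptor, had 1756, 2425, 2131 and 2135 CPM in Sham and 1540, 1997, 1791 and 1730 CPM in Control-AMI, with a log2 fold change of -0.26 ± 0.15 SE (adjusted p = 0.354). For Angpt1, Control-AMI ECs had 29.5, 6.42, 10.03 and 24.3 CPM, and replicates 1 and 4 stood above the others and above all Sham ECs (log2 fold change 1.83 ± 0.58 SE, adjusted p = 0.0632). Angpt2 in Control-AMI ECs was 17.7, 15.8, 20.7 and 14.9 CPM, with 20.65 CPM as the lowest Sham value (log2 fold change -0.78 ± 0.29 SE, adjusted p = 0.127). Vegfa and Vegfb in ECs had log2 fold changes of 0.49 ± 0.35 SE and 0.16 ± 0.31 SE (adjusted p = 0.476 and 0.834).

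**Figure D3:**
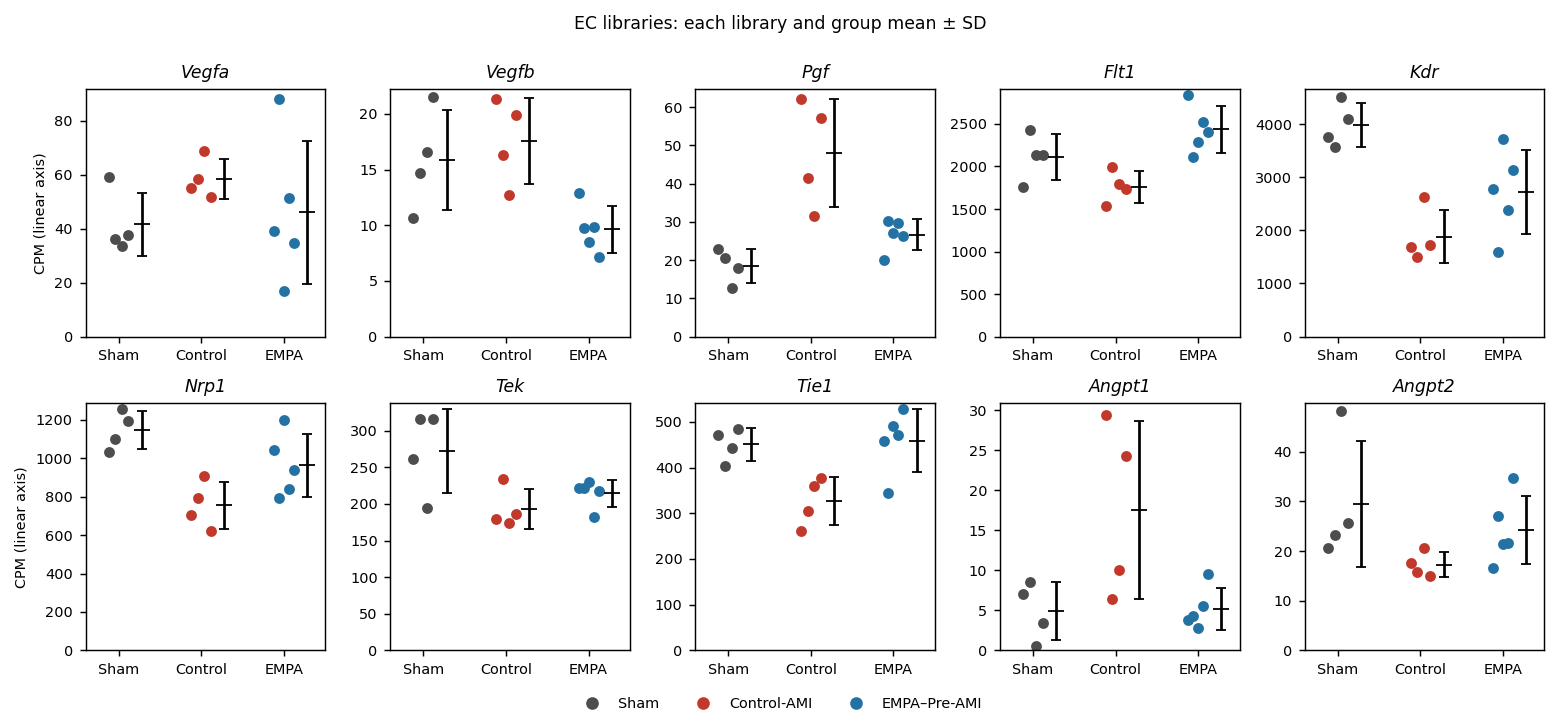
CPM on linear axes from 0 for the 10 genes in the 13 EC libraries, by group (Control is Control-AMI and EMPA is EMPA–Pre-AMI). Points are libraries and bars are the group mean ± SD (n = 4, 4 and 5). For Kdr the Control-AMI libraries lie at 1492 to 2623 CPM, below the Sham libraries at 3568 to 4506 CPM, and for Pgf they lie above Sham.

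Control-AMI ECs held more fibroblast RNA than the other EC groups. Their fibroblast marker sums were 38.6%, 10.46%, 11.5% and 21.5% of the fibroblast median of that group for replicates 1 to 4, against 3.12% to 8.08% in Sham ECs. Pgf and Angpt1, the genes that fibroblasts hold more of, were highest in replicates 1 and 4. Kdr did not follow that order within Control-AMI. It was lowest, at 1492 CPM, in replicate 2, which had the smallest marker sum of the group. Nrp1 was lowest in replicates 4 and 1, at 623 and 702.5 CPM, beside 792 and 906 CPM in replicates 2 and 3. Endothelial markers summed to 4203 to 6455 CPM in Control-AMI ECs and 6264 to 7569 CPM in Sham ECs. Relative to that sum, Kdr was 49.6%, 53.3%, 71.9% and 63.3% in Sham and 40.2%, 23.1%, 50.8% and 35.7% in Control-AMI, where 3 of 4 libraries were below every Sham library. The same ratio overlapped broadly for Nrp1, at 13.7% to 20.1% in Sham and 12.3% to 17.6% in Control-AMI, for Tie1, at 6.03% to 7.49% and 4.74% to 7.84%, and for Flt1, at 23.2% to 36.2% and 30.9% to 36.6%. With a term for the fibroblast marker level, chosen after seeing the data, the log2 fold changes were -0.59 for Kdr (adjusted p = 0.668), -0.28 for Nrp1 (adjusted p = 0.823) and 0.66 for Pgf (adjusted p = 0.69). In that fit 0 of the 10 genes and 0 of all 10438 genes tested were called, so the lost calls are not particular to these genes. That term and the group moved together, since every Control-AMI library had a higher marker sum (2343 to 8653 CPM) than the other EC libraries (599.9 to 1727 CPM). Without replicates 1 and 4 the log2 fold changes were -0.94 for Kdr (adjusted p = 0.103), -0.42 for Nrp1 (adjusted p = 0.281) and 0.99 for Pgf (adjusted p = 0.0806), and the calls were lost as well. Of all genes, 232 of 10953 were called in that fit, against 685 of 10438 in the reported fit.

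**Figure D4:**
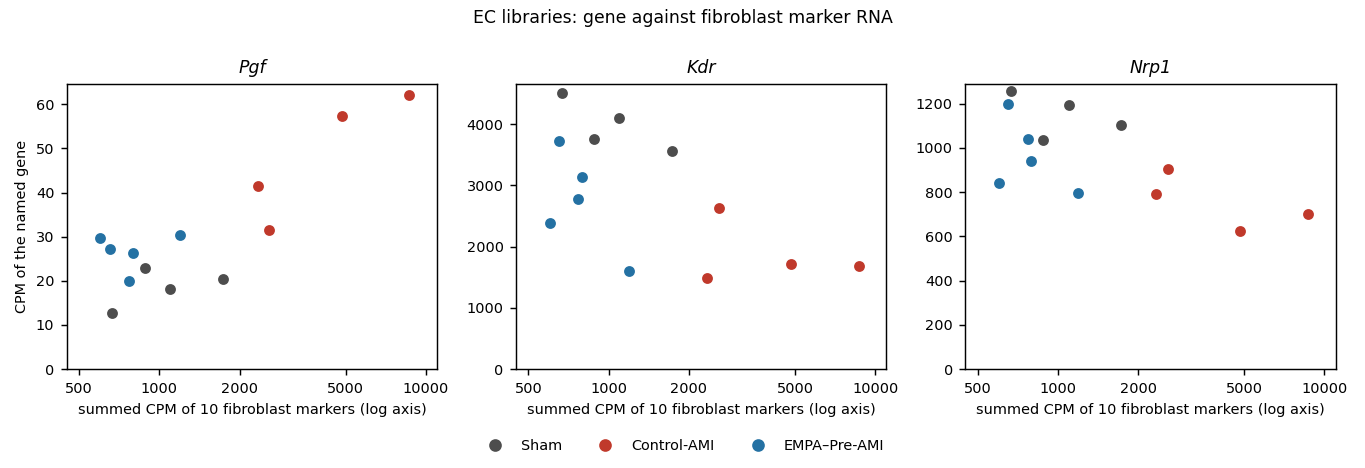
CPM of Pgf, Kdr and Nrp1 (linear axes from 0) against the summed CPM of 10 fibroblast markers (log axis) in the 13 EC libraries, coloured by group. The 4 Control-AMI libraries lie at 2343 to 8653 CPM of fibroblast markers, to the right of all others, and the highest marker sums go with the highest Pgf.

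EMPA pretreatment was compared with Control-AMI in the same EC libraries, which serve as the control here and as the treated group above. Pgf was the only one of the 10 genes that passed the test, against 2.63% of all genes. It had 19.9, 30.3, 27.1, 29.7 and 26.3 CPM in EMPA–Pre-AMI, all below the Control-AMI libraries, and fell 1.81-fold (log2 fold change -0.86 ± 0.23 SE, 95% interval -1.33 to -0.38, adjusted p = 0.0474, edgeR). Over its 25 alternatives the adjusted p of this call ran from 0.0123 to 1, and it was called in 12. With the fibroblast marker term its log2 fold change was 0.05, of the opposite sign. Without both Control-AMI replicates of list 4 it was -0.48 (adjusted p = 0.91). The call was also lost, at adjusted p from 0.0814 to 0.285, when any single one of these libraries was left out: replicates 1 and 4 of Control-AMI, and replicates 1, 3, 4 and 5 of EMPA–Pre-AMI.

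Kdr had 2781, 1599, 3724, 2378 and 3131 CPM in EMPA–Pre-AMI ECs and spanned the gap between the other groups. Its log2 fold change was 0.53 ± 0.20 SE against Control-AMI (95% interval 0.11 to 0.96, adjusted p = 0.236) and -0.55 ± 0.20 SE against Sham (-0.97 to -0.13, adjusted p = 0.181), so neither step passed the test. EMPA–Pre-AMI replicate 2, at 1599 CPM, was the lowest, and without it the difference from Control-AMI was 0.67 (adjusted p = 0.0328). Flt1 had 2845, 2112, 2293, 2526 and 2402 CPM in EMPA–Pre-AMI, all above the Control-AMI libraries, with a log2 fold change of 0.46 ± 0.14 SE (adjusted p = 0.0958). Tie1 had 459, 344, 492, 472 and 528 CPM, which overlapped Control-AMI in replicate 2, with a log2 fold change of 0.49 ± 0.15 SE (adjusted p = 0.0907). Nrp1 (0.35 ± 0.15 SE, adjusted p = 0.31) and Tek (0.15 ± 0.15 SE, adjusted p = 0.804) had smaller values. Vegfb, at 12.9, 9.73, 8.48, 9.89 and 7.18 CPM, had a log2 fold change of -0.86 ± 0.30 SE (adjusted p = 0.174) and overlapped Control-AMI, at 21.3, 16.3, 12.7 and 19.9 CPM. Angpt1 was 3.77, 4.33, 2.83, 5.56 and 9.58 CPM, with a log2 fold change of -1.76 ± 0.54 SE (adjusted p = 0.105). Relative to the endothelial marker sum, Kdr in EMPA–Pre-AMI was 38.6%, 25.6%, 57.9%, 34.7% and 48.1%, which overlapped both other groups. Between EMPA–Pre-AMI and Sham ECs, 0 of the 10 genes passed edgeR's test or that of DESeq2, against 2.71% of all genes by edgeR. DESeq2 called 421 of all 10438 genes. At an unadjusted p below 0.05 in edgeR there were 4 (Pgf, Tek, Vegfb and Kdr), beside 1475 of all genes.

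In cardiomyocytes, 0 of 9 genes tested passed in Control-AMI against Sham (0.0655% of all 9167 genes did), in EMPA–Pre-AMI against Control-AMI (0.0218%) or in EMPA–Pre-AMI against Sham (0.338%). At an unadjusted p below 0.05 there were 1, 3 and 1 of the 9, beside 249, 2295 and 1672 of all genes. DESeq2 called 0, 2 and 0 of the 9, beside 19, 880 and 201 of all genes. Angpt2 was too low to test. Vegfa varied little, at 116, 110.3, 128, 108 and 117.5 CPM in Control-AMI and 102, 137, 104 and 113 CPM in EMPA–Pre-AMI beside 117 to 130.1 CPM in Sham. Its 95% interval against Sham was -0.41 to 0.25 on the log2 scale for Control-AMI. Vegfb varied more in Control-AMI, at 212, 119, 290.0, 104 and 123 CPM, where the log2 fold change was -0.02 (-0.56 to 0.52). Tek had 20.3, 28.4, 29.9, 30.0 and 23.3 CPM in Control-AMI and 10.8, 9.68, 5.09 and 18.3 CPM in EMPA–Pre-AMI, without overlap. Its log2 fold change was -1.27 ± 0.29 SE (95% interval -1.86 to -0.67, adjusted p = 0.0571), and over 23 alternatives the adjusted p ran from 0.00183 to 0.999. It passed by DESeq2 (adjusted p = 0.00546), and without replicate 1 or 4 of EMPA–Pre-AMI (adjusted p = 0.042 and 0.00183). Tie1 had 36.0, 44.7, 27.6, 44 and 31.96 CPM in Control-AMI and 28.3, 24.2, 14.4 and 21.8 CPM in EMPA–Pre-AMI (log2 fold change -0.75 ± 0.23 SE, adjusted p = 0.0749). In the same comparison 2295 genes had an unadjusted p below 0.05 while 2 passed adjustment, and 3 of the 4 EMPA–Pre-AMI libraries are on sample-sheet lists with no Control-AMI cardiomyocyte library. Endothelial markers summed to 345 to 574 CPM in Control-AMI and 238 to 427 CPM in EMPA–Pre-AMI cardiomyocytes. Other markers were lower in the same libraries. Endocardial markers summed to 21.7 to 37 CPM in Control-AMI and 5.44 to 19.3 CPM in EMPA–Pre-AMI, without overlap, with Npr3, a marker of endocardium, at 12.9 to 22.3 and 3.63 to 9.85 CPM. Fibroblast markers summed to 889 to 2088 CPM in Control-AMI and 213 to 1242 CPM in EMPA–Pre-AMI, with a list median of -1.06 on the log2 scale, and none of the 9 fibroblast and 3 endocardial markers tested passed. The part of endocardial and fibroblast RNA in the Tek and Tie1 values was not tested. With a term for the endothelial sum, the log2 fold changes were -0.94 for Tek and -0.47 for Tie1 (adjusted p = 0.694 for both).

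In fibroblasts, 0 of 9 genes tested passed in Control-AMI against Sham (4.16% of all 10691 genes did), in EMPA–Pre-AMI against Control-AMI (0%, with 0 of all genes by edgeR and 170 at an unadjusted p below 0.05) or in EMPA–Pre-AMI against Sham (5.11%). None of the 9 had an unadjusted p below 0.05 or was called by DESeq2. Of all genes, 2057, 170 and 2225 had such a p in these comparisons, and DESeq2 called 772, 0 and 858. Pgf had 191, 107, 159 and 100.4 CPM in Sham, 169, 150.2, 189 and 158 CPM in Control-AMI and 216, 218, 137.5 and 171 CPM in EMPA–Pre-AMI. The groups overlapped, and the log2 fold change of Control-AMI against Sham was 0.26 ± 0.21 SE (95% interval -0.20 to 0.71, adjusted p = 0.555). For Nrp1 the interval was narrow, -0.33 to 0.30 around -0.01, and for Angpt1 it was -0.63 to 0.73 around 0.05. For Kdr, Flt1 and Tie1 the intervals were wide (-1.71 to 3.37 for Kdr), so that changes of severalfold could not be detected at this spread between libraries. Vegfa was 114, 65.3, 108 and 41.2 CPM in Control-AMI and 78.8, 61.1, 78.1 and 43.4 CPM in Sham (log2 fold change 0.33 ± 0.35 SE, adjusted p = 0.651).

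**Figure D5:**
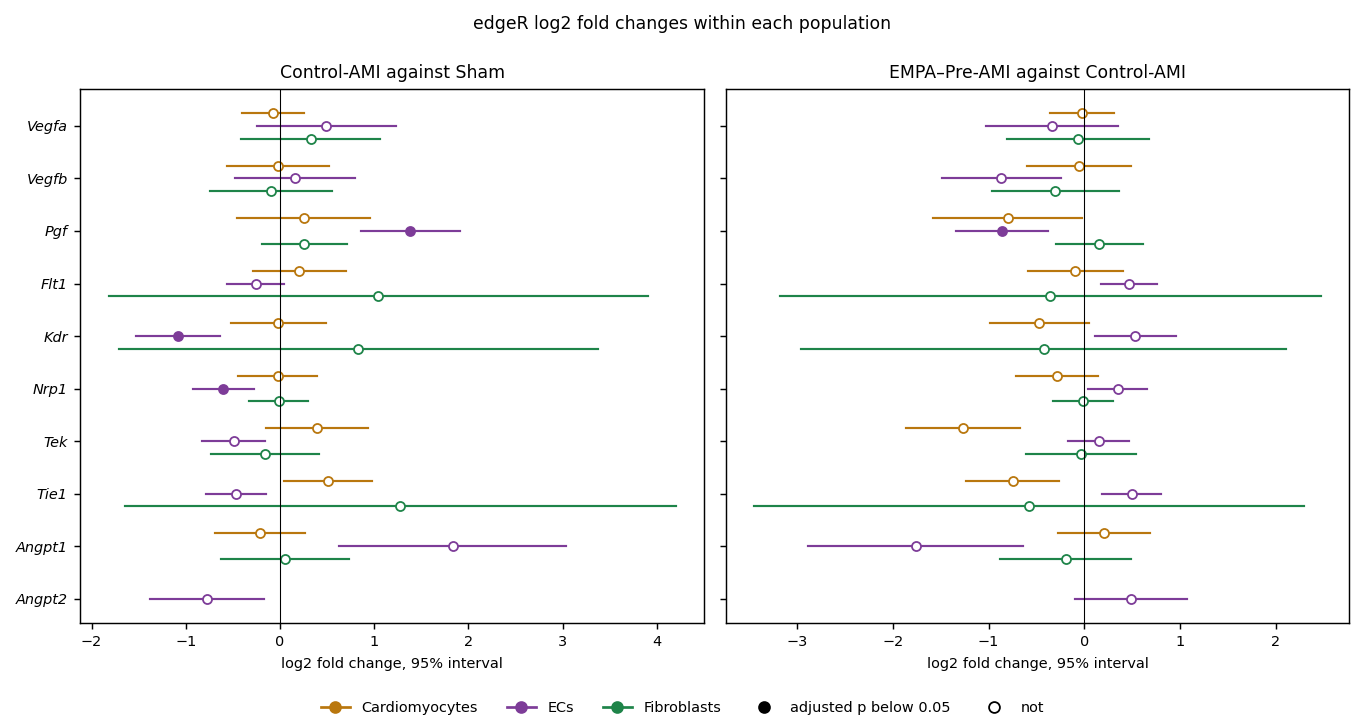
edgeR log2 fold changes with 95% intervals for the 10 genes in cardiomyocytes, ECs and fibroblasts, for Control-AMI against Sham and EMPA–Pre-AMI against Control-AMI, which share the Control-AMI libraries. Filled points passed an adjusted p of 0.05: Pgf, Kdr and Nrp1 in ECs on the left and Pgf in ECs on the right. Angpt2 was tested in ECs alone.

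Whether these effects differed between populations was tested as a difference of log2 fold changes in the fit of all libraries. For AMI, 0 of 10 genes passed between ECs and fibroblasts (3.22% of all genes did), between ECs and cardiomyocytes (1.51%) or between fibroblasts and cardiomyocytes (0.331%). In that order 3, 5 and 0 had an unadjusted p below 0.05, beside 1544, 1099 and 1023 of all 12085 genes. DESeq2 called 0, 1 and 0, beside 521, 272 and 88 of all genes. The EC effect on Pgf exceeded that in fibroblasts by 1.14 ± 0.38 SE (adjusted p = 0.103) and that in cardiomyocytes by 1.18 ± 0.40 SE (adjusted p = 0.19). For EMPA, 0 of 10 passed between ECs and fibroblasts (2.04% of all genes), 1 between ECs and cardiomyocytes (0.993%) and 0 between fibroblasts and cardiomyocytes (0.00827%). The 1 gene was Tek, whose difference was 1.43 ± 0.36 SE (adjusted p = 0.0423). In the same order 2, 3 and 2 had an unadjusted p below 0.05, beside 978, 1993 and 1841 of all genes. DESeq2 called 0, 2 and 0, beside 304, 403 and 165 of all genes. The changes of Kdr, Nrp1 and Pgf called in ECs are not shown to differ from those in the other populations.

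Other genes of the system were counted from lists. Of 6 further family members (Vegfc, Vegfd, Flt4, Nrp2, Angpt4 and Ptprb), 5 were tested in ECs, and Nrp2, a coreceptor of Flt4 and Kdr, fell after AMI (log2 fold change -0.66 ± 0.20 SE, adjusted p = 0.0477), with a list median of -0.23. The list counts in ECs after AMI stand against 6.56% of all genes. Of 28 genes of VEGF receptor signaling, 26 were tested in ECs and 2 passed, a share near that of all genes. Prkca, a protein kinase C downstream of Kdr, rose (1.42 ± 0.42 SE, adjusted p = 0.0434) and Plxnd1, a semaphorin receptor, fell (-0.76 ± 0.22 SE, adjusted p = 0.0444), with a list median of -0.15 against -0.02 for all genes. Without Control-AMI replicates 1 and 4, neither these genes nor Nrp2 passed (adjusted p = 0.379 for Plxnd1, 0.505 for Prkca and 0.4659 for Nrp2). With the fibroblast marker term the log2 fold changes were 0.10 for Prkca, -0.19 for Plxnd1 and -0.14 for Nrp2. The signaling list had 0 of 26 calls between EMPA–Pre-AMI and Control-AMI ECs, beside 2.63% of all genes. In fibroblasts 2 of 26 passed in EMPA–Pre-AMI against Sham, beside 5.11% of all genes, Dab2 higher (0.87 ± 0.21 SE) and Gab1 lower (-1.21 ± 0.34 SE).

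Of 13 genes known to be induced by VEGF in endothelium, 11 were tested in ECs and 3 fell after AMI, with none rising. They were Hlx, a homeobox factor, Cxcr4, a chemokine receptor, and Dll4, the Notch ligand of tip cells. Hlx had a mean of 58.3 ± 15.3 CPM in Sham and 12.2 ± 5.52 CPM in Control-AMI (SD, n = 4 each), a log2 fold change of -2.27 ± 0.29 SE (adjusted p = 2.749e-04). Dll4 had means of 73.4 ± 14.4 and 26.9 ± 9.53 CPM (log2 fold change -1.46 ± 0.24 SE, adjusted p = 0.00116) and Cxcr4 means of 33.5 ± 9.01 and 9.73 ± 5.69 CPM (-1.81 ± 0.35 SE, adjusted p = 0.00346). Without Control-AMI replicates 1 and 4, Hlx (-2.47, adjusted p = 7.576e-04) and Dll4 (-1.05, adjusted p = 0.0379) still passed and Cxcr4 did not (-1.32, adjusted p = 0.087). With the fibroblast marker term none passed, at -1.72 for Hlx (adjusted p = 0.208), -0.59 for Cxcr4 (adjusted p = 0.815) and -0.62 for Dll4 (adjusted p = 0.651). The same 3 genes were lower in EMPA–Pre-AMI ECs than in Sham (Hlx -1.59, Cxcr4 -1.48 and Dll4 -0.81 on the log2 scale), where 2.71% of all genes were called. These 3 calls held with the fibroblast marker term (-1.71, -1.80 and -1.03). None passed between EMPA–Pre-AMI and Control-AMI, beside 2.63% of all genes. In fibroblasts other members of the list passed, with Adamts1 (1.75 ± 0.30 SE, adjusted p = 0.00313) and Dusp5 (1.64 ± 0.39 SE, adjusted p = 0.0249) higher after AMI and none lower among 9 tested, beside 4.16% of all genes. The list medians were -0.27 in ECs and 0.60 in fibroblasts. In cardiomyocytes 0 of 9 passed after AMI, beside 0.0655% of all genes.

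Of 10 genes of Tie2 signaling, 8 were tested in ECs, and Klf2, a flow-responsive transcription factor, fell after AMI from 1538 ± 371 to 458 ± 133 CPM (SD, n = 4 each; log2 fold change -1.75 ± 0.28 SE, adjusted p = 0.00224), and it passed without Control-AMI replicates 1 and 4 as well (-1.68, adjusted p = 0.0394). Klf2 was lower in Control-AMI fibroblasts too (-1.54 ± 0.24 SE, adjusted p = 0.00155). Klf2 (-1.41, adjusted p = 0.00631) and Foxo1, the factor that Tie2 signaling restrains (-0.68 ± 0.16 SE, adjusted p = 0.0164), were lower in EMPA–Pre-AMI ECs than in Sham. Cdh5 was higher in EMPA–Pre-AMI than in Control-AMI ECs (0.64 ± 0.17 SE, adjusted p = 0.0477), though not without those replicates (0.32, adjusted p = 0.901). With the fibroblast marker term its log2 fold change was -0.22, of the opposite sign, and did not pass. Of 15 targets of the hypoxia-inducible factors, 14 were tested in ECs, where 4 rose and 1 fell after AMI. Those that rose were Hk2 (2.82 ± 0.53 SE) and Pfkfb3 (1.89 ± 0.48 SE), enzymes of glycolysis, Bnip3 (1.24 ± 0.31 SE), a mitophagy receptor, and Adm (1.16 ± 0.26 SE), the peptide adrenomedullin, while Egln1 (-0.82 ± 0.18 SE), an oxygen sensor, fell. Without Control-AMI replicates 1 and 4, Hk2 (3.15, adjusted p = 0.00453), Bnip3 (1.51, adjusted p = 0.0209) and Adm (1.19, adjusted p = 0.0496) passed, while Pfkfb3 (2.20, adjusted p = 0.0689) and Egln1 (-0.79, adjusted p = 0.0647) did not. Pfkfb3 and Bnip3 were also higher in EMPA–Pre-AMI ECs than in Sham (2.37 and 1.74 on the log2 scale), where 2.71% of all genes were called. With the fibroblast marker term Bnip3 passed in that comparison (1.65, adjusted p = 0.0115) and Pfkfb3 did not (2.21, adjusted p = 0.0592). In fibroblasts Hk2 (1.89 ± 0.33 SE) and Slc2a1 (1.98 ± 0.38 SE), a glucose carrier, rose after AMI among 13 tested, beside 4.16% of all genes. In cardiomyocytes 0 of 12 passed after AMI, beside 0.0655% of all genes. The list medians after AMI were 0.13 in ECs, 0.50 in fibroblasts and -0.04 in cardiomyocytes. With the fibroblast marker term, 0 genes of the 5 lists passed between Control-AMI and Sham ECs, and 0 of all 10438 genes tested did. In the same comparison, other log2 fold changes with that term were -2.01 for Klf2, 3.26 for Hk2 and 2.43 for Pfkfb3. They were 1.51 for Bnip3, 1.17 for Adm and -0.77 for Egln1.

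Genes most like each member were found by Pearson's r of log2 CPM over all 38 libraries, which mostly reflects the 3 populations. For Flt1 they were Adgrl4 (r = 0.994), Btnl9 (0.993) and Cdh5 (0.99), for Kdr Cyyr1 (0.989), Btnl9 (0.988) and Ptprb (0.988), and for Tie1 Mmrn2 (0.989), Flt1 (0.986) and Cdh5 (0.986). For Vegfb they were Etfb (0.989), Hadha (0.989) and Vdac1 (0.989), and for Vegfa Hspb8 (0.963), Ndufa5 (0.957) and Slc16a1 (0.957). For Pgf they were Ccdc80 (0.957), Pdpn (0.955) and Slc1a5 (0.954), for Nrp1 they included Elk3 (0.977) and Dennd5b (0.969), and for Tek they were Samd9l (0.933), Syne2 (0.93) and Itpr2 (0.927). For Angpt1 they included Arhgap20 (0.96) and Pygo1 (0.953), and for Angpt2 they were Fli1 (0.916), Clec14a (0.905) and Als2cl (0.902). Over the 13 EC libraries after subtraction of the group means, the genes most like Kdr were Shtn1 (r = 0.944), Map3k5 (0.941) and Bloc1s6 (0.937), those most like Pgf were Pgrmc2 (0.938), Rpl10a (0.936) and Rps4x (0.929), and those most like Nrp1 were Cd38 (0.965), Arhgap17 (0.942) and Tnfsf10 (0.932). These are the highest values over all genes tested, given as a description without a test.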

How the data were processed

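The authors made 3′ RNA libraries (QuantSeq FWD), trimmed reads with cutadapt 2.8 and quantified them with Salmon against GRCm39 (Ensembl release 106). They deposited one table; these deposited values are estimated counts per gene, unnormalized by the authors, and were rounded to whole numbers here. The strand setting is not given in the sources used here, so reads of Vegfb and Trpt1, of Angpt2 and Mcph1, and of members with a predicted antisense gene could not be told apart where they overlap. Symbols came from a later GRCm39 annotation (35407 of 35682 IDs).

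Groups followed the labels. Each population was fitted by itself with edgeR 4.0.16 (R 4.3.3), with filterByExpr (minimum count 10), TMM factors and robust quasi-likelihood tests, and a joint fit of 38 libraries gave Sham differences between populations and differences of effect. Adjusted p is Benjamini-Hochberg over all genes of a fit, with a threshold of 0.05, and intervals cover 95%. The methods give the libraries of a group as independent experiments on pooled hearts. The joint fit has no term for the hearts that populations shared, and it treats libraries from the same hearts as independent. Squared differences between libraries of a group averaged 4.60 to 87.1 times the variance of counting error alone (62 pairs). Each library was counted once.

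The 10 genes, the lists and the markers were chosen with earlier results of these data known. All 10 were described, with list genes past the threshold and the 3 genes most like each member by Pearson's r of log2 CPM (prior count 2), of which some are not reported here. Alternatives were DESeq2 1.42.0, RLE factors, no filter, a minimum of 10 counts per library, no robust estimation, a replicate block, fits of only the groups compared, a sample-sheet term, list 2 alone, no mitochondrial genes and each library left out. Marker terms, ECs without both list 4 libraries and library totals as the only scaling were added after seeing the data. Steps were tested on simulated data.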

Additional observations from a re-analysis of the deposited data

Results flagged for a closer look

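Among 90 groups of 4 or 5 libraries (10 genes in 9 groups), 6 held a library whose gap to its nearest neighbour was a large part of the group's range by Dixon's test, where chance gives about 1 in 20. Vegfa in Sham ECs was 58.99 CPM in replicate 1, with 37.5 CPM next. Flt1 was 6.997 CPM and Kdr 15.2 CPM in fibroblast Control-AMI replicate 4, with 113 and 173 CPM as the next lowest. That library held Cdh5 at 1.65 CPM and mural markers at 6334 CPM, and their part in these values was not tested. Nrp1 in Sham cardiomyocytes was 63.95 CPM in replicate 3, with 81.1 CPM next. Tek in EMPA–Pre-AMI ECs was 182.9 CPM in replicate 4, with 217 CPM next. Angpt2 in EMPA–Pre-AMI cardiomyocytes was 4.84 CPM (8 counts) in replicate 2, with 1.13 CPM next.

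Tek was flagged because its EMPA effect differed between populations. The EC effect minus the cardiomyocyte effect was 1.43 on the log2 scale (adjusted p = 0.0423, edgeR), from 0.15 ± 0.15 SE in ECs and -1.27 ± 0.29 SE in cardiomyocytes in the separate fits. The adjusted p ran from 0.00345 to 0.124 over 46 alternatives and was below 0.05 in 30 of them. It was above 0.05 without any single one of 15 of the 38 libraries: replicate 1 of Sham, replicates 2 to 5 of Control-AMI and replicates 2 and 3 of EMPA–Pre-AMI in cardiomyocytes, and replicates 1, 3 and 4 of Control-AMI and all 5 of EMPA–Pre-AMI in ECs. Tek was lower in all 4 EMPA–Pre-AMI cardiomyocyte libraries than in all 5 of Control-AMI, on 16 to 91 counts a library. In the same libraries endocardial markers summed to 5.44 to 19.3 CPM against 21.7 to 37 CPM, and fibroblast markers to 213 to 1242 CPM against 889 to 2088 CPM, and their part in the Tek values was not tested.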

How the results depend on the processing

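Of the EC calls after AMI, Kdr and Pgf kept direction and threshold in 21 of 25 alternatives and Nrp1 in 17, and their directions held in all 25. Of 10 genes, 0 were called with a sample-sheet term, in list 2 alone, without both list 4 libraries and with the fibroblast term, against 3 in the reported fit. Of all genes, these fits called 234, 180, 232 and 0, against 685 in the reported fit, so calls were lost in general. Leaving out each library gave 2 to 5 calls, with 5 without Control-AMI replicate 2. Nrp1 was lost without Control-AMI replicate 1 or 4 or Sham replicate 3 or 4. For EMPA against Control-AMI in ECs the reported fit had 1 call, beside 274 of all genes. DESeq2 called 3 and the fit without a filter 2, beside 343 and 458 of all genes. Without robust estimation and with only the groups compared there were 0, beside 262 and 207 of all genes. With the list term, in list 2, without the list 4 libraries and with the fibroblast term there were also 0. These 4 fits called 9, 3, 38 and 0 of all genes, and with the fibroblast term Pgf reversed to 0.0498. Leaving out a library gave 0 to 4 calls (4 without EMPA–Pre-AMI replicate 2). In cardiomyocytes EMPA against Control-AMI gave 2 calls by DESeq2 (Tek and Tie1) and 1 (Tek) without a filter or with at least 10 counts. Of all genes these 3 fits called 880, 338 and 284, against 2 in the reported fit. Leaving out a library gave 0 to 1 calls, as it did for EMPA against Sham. Tek in fibroblasts gave 1 call in EMPA against Sham with the list term, beside 985 of all 10691 genes (546 in the reported fit). The replicate block gave 4 calls in ECs after AMI (Angpt1 added), 0 for EMPA against Control-AMI and 1 (Kdr, -0.66) for EMPA against Sham. Of all genes the block called 665, 149 and 286. Replicates share only a number: deviations of same-numbered libraries correlated above 0.1 in 4 of 12 pairs in ECs, 3 of 12 in cardiomyocytes and 6 of 12 in fibroblasts.

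For EC minus cardiomyocyte effects of AMI (0 calls) DESeq2 and the replicate block gave 1. Of all 12085 genes these fits called 272 and 169, against 183 in the reported fit. For those of EMPA (1 call) DESeq2 and the list term gave 2 and the replicate block 0. Of all genes these fits called 403, 196 and 49, against 120 in the reported fit. EC minus fibroblast effects of AMI gave 1 call with the list term, beside 246 of all genes (389 in the reported fit). Fibroblast minus cardiomyocyte effects of EMPA gave 1 with library totals alone, beside 151 of all genes (1 in the reported fit). Leaving out a library gave 0 to 1 for the EC minus cardiomyocyte, the EC minus fibroblast effects of AMI and the fibroblast minus cardiomyocyte effects of EMPA, and 0 to 2 for the EC minus cardiomyocyte effects of EMPA. Between Sham populations, leaving out a library gave 8 to 9 calls for ECs against fibroblasts, 10 for cardiomyocytes against ECs and 6 to 7 for cardiomyocytes against fibroblasts. Library totals alone reversed Pgf between cardiomyocytes and ECs (-0.81) and, between cardiomyocytes and fibroblasts, Angpt1 (-0.71) and Nrp1 (-1.56), the last also with mitochondrial genes left out (-0.49). Angpt2 between cardiomyocytes and fibroblasts, not called (0.98), also turned sign (-0.75). The cause was not tested. At these depths Angpt2 in cardiomyocytes and fibroblasts and Angpt1 in ECs rest on 1 to 65 counts a library.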
